A study of Homo sapiens with 12 samples.

Results

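The heat shock proteins of the cytosol and their co-chaperones were followed in OVCAR8 cells, an established human ovarian cancer cell line, as 41 genes chosen by symbol out of 26485 annotated genes. The cells were exposed for 7 h to vehicle (control), to 150 nM EC359 (an inhibitor of the leukemia inhibitory factor receptor, LIFR), to 100 nM trametinib (an inhibitor of the kinase MEK), or to both agents at those doses (combination). Poly(A) RNA was sequenced in 3 libraries per group, 12 in all, with 24790392 to 32467283 counts per library. The labels do not say that the libraries of a group came from separate cultures, so p-values measure the spread between these libraries, which may be technical. RNA came from whole cultures, in which fewer cells of a type and less RNA per cell cannot be told apart. Every group is the same single cell line, at 1 dose of each agent and 1 time point.

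Heat shock proteins bind unfolded or partly folded proteins and hold, refold or hand them on for degradation. HSP70 proteins work in cycles of ATP hydrolysis that are started by HSP40 (DNAJ) partners and reset by nucleotide exchange factors such as the HSP110 and BAG proteins, while HSP90 and its co-chaperones finish the folding of kinases, steroid receptors and other clients. When unfolded protein builds up in the cytosol, the transcription factor HSF1 is released from chaperones and binds heat shock elements, repeats of the letters GAA in alternating orientation, in the promoters of many of these genes. Cancer cells often run with high chaperone levels.

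All 41 genes were found, and 39 passed the filter on low counts. The small heat shock protein HSPB8 had no count in any of the 12 libraries. For counting error only, this allows up to 0.127 CPM in the library with the smallest scaled total. CPM are counts scaled to the library total after adjustment by trimmed mean (TMM) factors. HSPA1L, a relative of HSPA1A expressed mainly in testis, had 0 to 4 counts per library. UBB, a gene outside the group that is known to respond to HSF1, also reached at most 0.143 CPM. Whether reads of these genes were lost in mapping or counting was not tested. The name cytosolic held for most but not all of the genes, since HSPA9, HSPD1 and HSPE1 encode mitochondrial proteins and HSPA13 a protein of the endoplasmic reticulum. The Müllerian marker PAX8 stood at 75.8 ± 2.13 CPM in control (SD, n = 3) and the keratins KRT7, KRT8 and KRT18 at 976, 1930 and 1047 CPM. The other listed markers of the line were low for WT1 (4.36 CPM) and EPCAM (11.4 CPM) and at or near 0 for MUC16, while the mesenchymal CDH2 and VIM stood at 173 and 2290 CPM. Of the markers of other cells, PTPRC, CD3E and DCN had no count, ALB and PECAM1 stayed at group means of at most 0.107 CPM, and CD68 stood at 49.4 to 58.1 CPM.

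The group of genes as a whole took 2.21% ± 0.0292 of all counts in control, 2.77% ± 0.0383 with EC359, 2.17% ± 0.0117 with trametinib and 2.86% ± 0.0452 in the combination group (SD, n = 3 each). The libraries with EC359 lay between 2.73% and 2.91%, with or without trametinib, and the others between 2.16% and 2.24%, so the ranges did not overlap.

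Promoters were examined because the data bear on genes that share a known element. RefSeq promoter sequences (GRCh38.p14, 250 bases before to 50 bases after an annotated start) were found for 36 of the 41 genes, as 53 promoters. The element was searched on both strands as 2 units (GAANNTTC or TTCNNGAA, overlaps counted) and as 3 units (GAANNTTCNNGAA or TTCNNGAANNTTC, each of which also holds both 2-unit forms). A 2-unit match was present in 39.6% of the 53 promoters and in 13.5% of all 35116 promoters of the same length. A 3-unit match was present in 15.1% of the 53 and in 0.49% of all. By gene, 20 of the 36 had a 2-unit match and 8 had a 3-unit match (HSPA6, HSPA8, HSP90AA1, HSP90AB1, HSPD1, DNAJA1, DNAJB6 and CHORDC1). The 4 promoters printed are those of the 2 genes with the largest change and of the 2 others with the most 3-unit matches, a tie at 2 matches between HSP90AB1, HSPA8 and HSPD1 going to HSP90AB1 for its larger change in the combination, in lower case with the letters of every 2-unit match in capitals. They lie at chr1:161524290-161524589 (HSPA6, plus strand), chr6:31815293-31815592 (HSPA1A, plus strand), chr11:90223000-90223299 (CHORDC1, minus strand) and chr6:44247693-44247992 (HSP90AB1, plus strand, the most downstream of its 3 annotated starts), and are written 5′ to 3′ along the gene.
HSPA6: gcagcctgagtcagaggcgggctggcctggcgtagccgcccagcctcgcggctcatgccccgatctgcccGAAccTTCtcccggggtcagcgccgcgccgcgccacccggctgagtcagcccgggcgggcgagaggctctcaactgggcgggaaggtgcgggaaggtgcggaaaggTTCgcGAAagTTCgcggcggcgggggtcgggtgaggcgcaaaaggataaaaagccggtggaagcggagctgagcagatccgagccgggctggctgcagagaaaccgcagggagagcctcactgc
HSPA1A: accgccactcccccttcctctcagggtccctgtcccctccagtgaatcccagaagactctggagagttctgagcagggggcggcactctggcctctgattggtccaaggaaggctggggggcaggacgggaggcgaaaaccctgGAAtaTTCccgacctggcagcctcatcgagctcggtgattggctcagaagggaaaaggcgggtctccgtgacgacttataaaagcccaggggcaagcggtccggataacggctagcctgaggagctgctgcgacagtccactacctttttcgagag
CHORDC1: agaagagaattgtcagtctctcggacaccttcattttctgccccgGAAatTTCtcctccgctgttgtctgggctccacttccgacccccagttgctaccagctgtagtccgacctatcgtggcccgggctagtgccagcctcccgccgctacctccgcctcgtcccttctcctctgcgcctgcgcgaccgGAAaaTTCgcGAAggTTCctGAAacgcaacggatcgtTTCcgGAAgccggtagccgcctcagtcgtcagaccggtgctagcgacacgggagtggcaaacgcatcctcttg
HSP90AB1: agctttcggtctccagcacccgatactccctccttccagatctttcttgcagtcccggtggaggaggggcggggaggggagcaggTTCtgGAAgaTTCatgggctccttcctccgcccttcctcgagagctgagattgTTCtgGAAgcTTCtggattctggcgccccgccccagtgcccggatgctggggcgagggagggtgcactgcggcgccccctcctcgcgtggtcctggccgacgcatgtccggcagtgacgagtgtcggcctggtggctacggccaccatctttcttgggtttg
In HSPA6 the 3-unit match began 74 bases before the start, and in HSPA1A the only match was a 2-unit one 106 bases before it. CHORDC1 carried 3 overlapping 3-unit matches, which begin 60 bases before its start, and HSP90AB1 carried 2 that do not touch.

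EC359 alone was compared to control to ask how chaperone transcripts differed with this compound. Whether a change came through LIFR was not tested. Most of the group was higher with EC359 than in control: 30 of the 39 tested genes rose and 2 fell at an adjusted p under 0.05 (edgeR quasi-likelihood test, Benjamini-Hochberg adjustment over all 14865 genes tested). Over all genes tested, 30.8% rose and 30.3% fell in the same comparison, and the median log2 fold change was 0.30 for the group against -0.01 for all genes. Of the 39, 7 rose by 2-fold or more and none fell that far, against 4.19% and 2.79% of all genes. Scaling by total counts only, without TMM factors, moved the all-gene median to -0.15 and gave 26 of the group higher and 8 lower.

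Trametinib alone was compared to control to ask the same of this compound. It changed the group little and mostly downward: 8 genes rose and 15 fell, against 13.0% and 15.2% of all genes, and the median log2 fold change was -0.07. None of the 39 reached 2-fold in either direction, against 0.478% (higher) and 0.955% (lower) of all genes. With total counts only, 8 rose and 8 fell.

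The combination was compared to control, and then to each single agent. Compared to control, 33 genes rose and 3 fell, against 35.0% and 34.7% of all genes, with a median log2 fold change of 0.39. Of these, 9 rose by 2-fold or more and none fell that far, against 7.27% and 5.87% of all genes. Leaving HSPA1A, HSPA1B and HSPA6 out, 30 of 36 still rose, with a median of 0.32. With total counts only, 26 rose and 5 fell. Compared to trametinib, 34 rose and 3 fell (35.3% and 32.9% of all genes), or 28 and 6 with total counts only, and 7 rose by 2-fold or more (6.12% of all genes). The treatment-versus-control comparisons share the same 3 control libraries, so their values stand side by side and are not independent of each other.

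**Figure D1:**
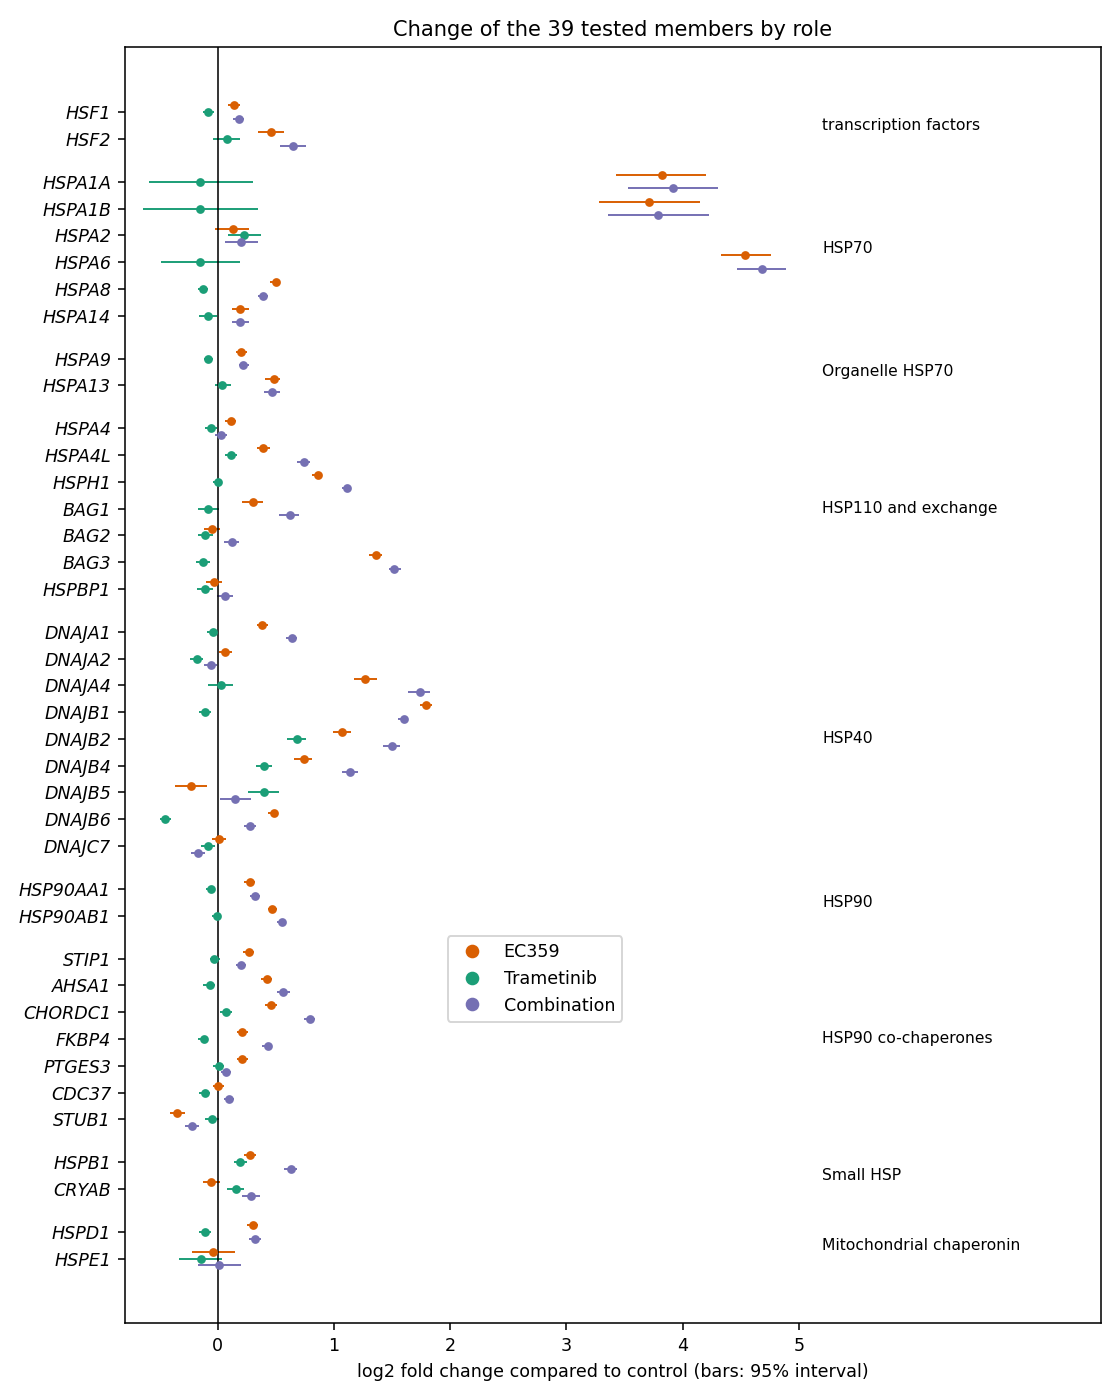
Log2 fold change compared to control (horizontal axis, points, with 95% intervals as bars) of the 39 tested genes, arranged by role, for EC359, trametinib and the combination. HSPA1A, HSPA1B and HSPA6 lie between 3.71 and 4.68 with EC359 and in the combination, whereas trametinib alone ranges from -0.45 (DNAJB6) to 0.68 (DNAJB2).

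Both transcription factors of the group were higher with EC359 and in the combination than in control, although the call for HSF1 was lost when total counts only were used for scaling. HSF1, the main regulator of the cytosolic heat shock response, stood at 267, 281 and 269 CPM in control, 306, 294 and 300 CPM with EC359, 254, 257 and 260 CPM with trametinib, and 303, 306 and 314 CPM in the combination group. The EC359 and combination libraries all lay above the control libraries, and the trametinib libraries below them. The log2 fold change was 0.14 ± 0.03 (SE) with EC359 (adjusted p = 2.8e-06), -0.08 ± 0.03 with trametinib (adjusted p = 0.00846) and 0.18 ± 0.03 in the combination (adjusted p = 8.6e-09). With total counts only, the values with EC359 and in the combination were 0.01 and 0.04 and neither passed the test, so this call depends on the scaling. HSF1 activity is set largely by its release and phosphorylation, which transcript counts do not measure. HSF1 overlaps DGAT1 on the opposite strand.

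HSF2, a related factor that can form mixed trimers with HSF1, stood at 22.1, 23.8 and 23.6 CPM in control, 29.8, 32.7 and 33.1 CPM with EC359, 24.6, 24.3 and 24.3 CPM with trametinib, and 37.3, 33.7 and 38.2 CPM in the combination group. The groups with EC359 did not overlap the groups without it. HSF2 rose with EC359 (log2 fold change 0.46 ± 0.06, adjusted p = 1.9e-10) and in the combination (0.65 ± 0.06, adjusted p = 8.5e-16), and it was 0.19 ± 0.05 higher in the combination than with EC359 alone (adjusted p = 0.00282).

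The stress-inducible HSP70 genes showed the largest changes of the group. HSPA1A, the major inducible HSP70 (chr6:31815514-31817942, hg38, plus strand), stood at 57.0, 65.5 and 52.6 CPM in control and at 716, 771 and 982 CPM with EC359. It stood at 51.4, 45.6 and 60.5 CPM with trametinib and at 993, 808 and 845 CPM in the combination group. The 6 libraries with EC359 were all far above the 6 without it, and the EC359 and combination libraries overlapped each other. The fold change was 14.1 with EC359 (log2 3.82 ± 0.17, adjusted p = 4.6e-08) and 15.1 in the combination (log2 3.92 ± 0.17, adjusted p = 2.7e-08). Trametinib alone gave a log2 value of -0.15 ± 0.19 (adjusted p = 0.657).

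HSPA1B, the near-identical neighbouring copy (chr6:31827735-31830254, plus strand), stood at 63.9, 72.3 and 53.3 CPM in control and 696, 786 and 1000 CPM with EC359. It stood at 57.7, 52.5 and 60.4 CPM with trametinib and 1022, 772 and 832 CPM in the combination group, in the same order of groups as HSPA1A. Its log2 fold change was 3.71 ± 0.19 with EC359 and 3.79 ± 0.19 in the combination (adjusted p = 1.3e-07 and 8.1e-08). The copies share reads, which the counting split in fractions, and their gene models also lie on 4 alternative chromosome 6 contigs, so the split between them is uncertain. Whether reads of the pair were lost at the mapping quality minimum was not tested, so their sum and its share of HSP70 are uncertain too. Summed, HSPA1A and HSPA1B changed by 13.6-fold with EC359 (log2 3.76 ± 0.18, adjusted p = 7.1e-08), by 14.5-fold in the combination (3.86 ± 0.18, adjusted p = 4.3e-08) and by a log2 value of -0.15 ± 0.18 with trametinib (adjusted p = 0.626).

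HSPA6, a strictly stress-inducible HSP70 that is nearly silent in unstressed cells (chr1:161524540-161526897, plus strand), stood at 1.18, 1.11 and 1.12 CPM in control and at 26.6, 26.7 and 26.4 CPM with EC359. It stood at 0.749, 1.29 and 1.07 CPM with trametinib and at 29.9, 30.6 and 27.1 CPM in the combination group. The control level rested on 33 to 38 counts per library and the EC359 level on 630 to 795. The fold change was 23.3 with EC359 (log2 4.54 ± 0.11, adjusted p = 4.1e-41) and 25.7 in the combination (log2 4.68 ± 0.10, adjusted p = 5.5e-42), the largest of the 39 genes in both comparisons. With EC359 its replicates lay within 26.4 to 26.7 CPM, whereas those of HSPA1B ranged from 696 to 1000 CPM.

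**Figure D2:**
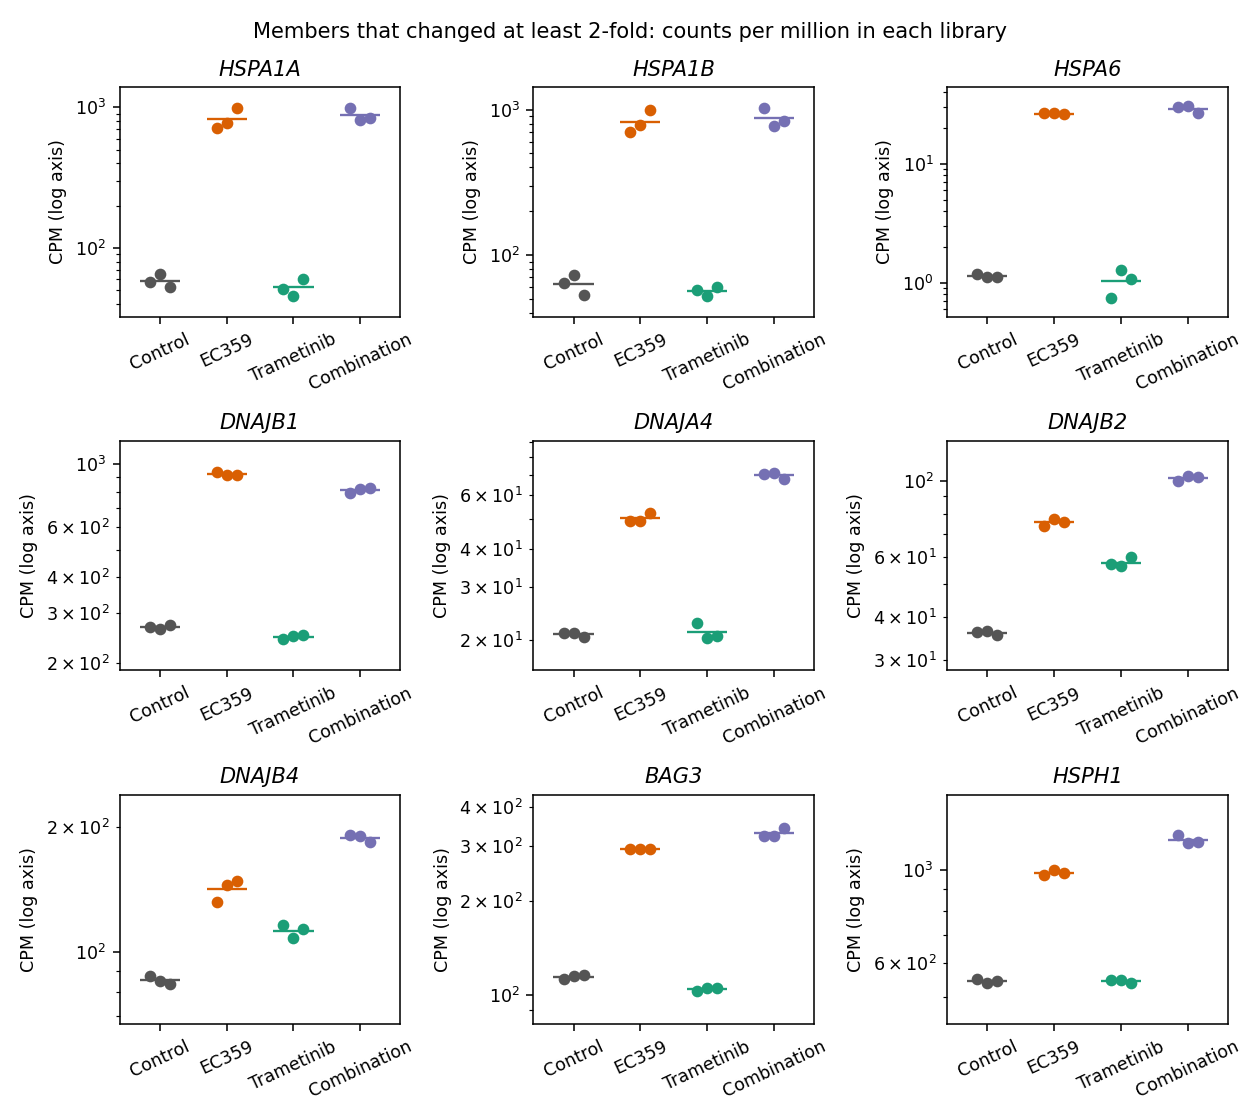
CPM (vertical axis, log scale) in each library for the 9 genes that rose by 2-fold or more in the combination, with the group means as lines. The genes were picked for their rise in the combination, so their separation from control there follows from the choice, and DNAJB2 and DNAJB4 are also higher with trametinib alone than in control.

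HSPA8, the constitutive HSP70 that handles most routine folding (chr11:123057492-123062335, minus strand), stood at 2835, 2828 and 2884 CPM in control and 4110, 4001 and 3946 CPM with EC359. It stood at 2589, 2669 and 2579 CPM with trametinib and 3752, 3776 and 3687 CPM in the combination group. No group overlapped another. HSPA8 rose with EC359 (log2 0.50 ± 0.02, adjusted p = 1.4e-28) and in the combination (0.39 ± 0.02, adjusted p = 3.7e-24), and fell with trametinib (-0.13 ± 0.02, adjusted p = 2.1e-06). HSPA14, a ribosome-associated HSP70, rose by 0.19 ± 0.04 in both EC359 groups. HSPA2, best known in testis, passed the test with trametinib (0.23 ± 0.07, adjusted p = 0.0114) and in the combination (0.20 ± 0.07, adjusted p = 0.0123) but not with EC359 (0.13 ± 0.07, adjusted p = 0.13). The organelle HSP70 proteins HSPA9 (mitochondria) and HSPA13 (endoplasmic reticulum) rose with EC359 by 0.20 ± 0.02 and 0.48 ± 0.03.

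Per kb of exon, HSPA8 was the most abundant of the 6 tested cytosolic HSP70 genes in all groups, at 1158 ± 12.3 CPM per kb in control (SD, n = 3). HSPA1A and HSPA1B followed at 24.0 ± 2.69 and 25.1 ± 3.79, which do not differ beyond their spread, and then came HSPA14 (9.39 ± 0.479), HSPA2 (4.84 ± 0.333) and HSPA6 (0.482 ± 0.0158). With EC359, HSPA1A and HSPA1B stood at 339 ± 57.8 and 328 ± 62.0 CPM per kb, again within their spread, HSPA6 at 11.3 ± 0.0725 lay above HSPA14 at 10.7 ± 0.143, and HSPA2 was last at 5.29 ± 0.203. The pair HSPA1A and HSPA1B therefore made up 4.02% ± 0.541 of the summed HSP70 level per kb in control, 28.6% ± 3.98 with EC359, 3.95% ± 0.460 with trametinib and 31.4% ± 2.75 in the combination group. HSPA8 made up 94.8% ± 0.532 of it in control and 70.3% ± 3.93 with EC359.

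**Figure D3:**
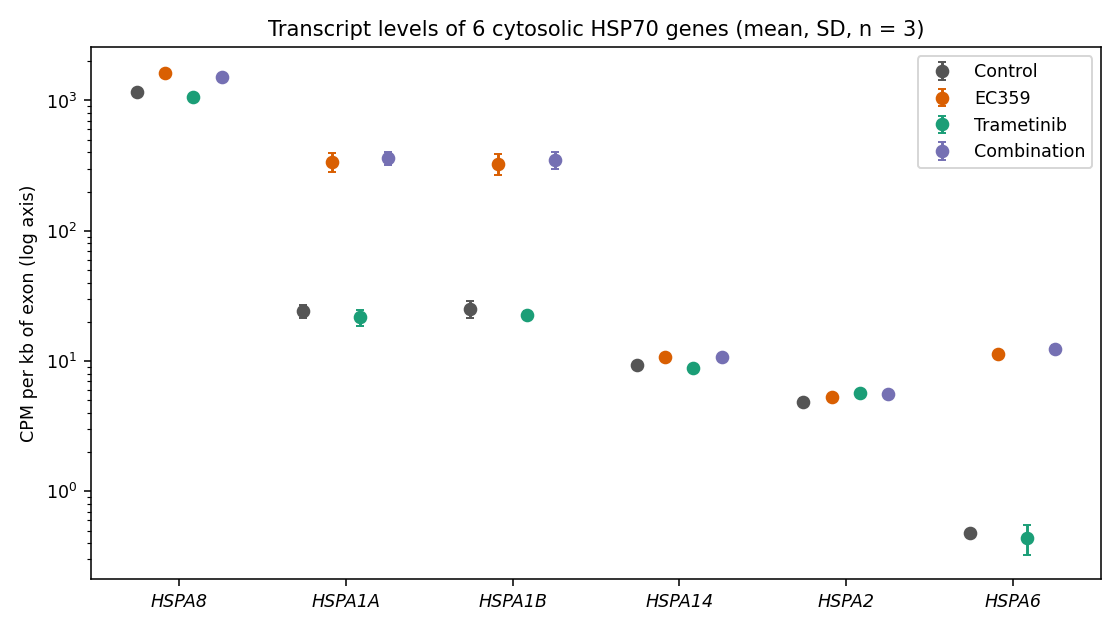
Levels of the 6 tested cytosolic HSP70 genes in CPM per kb of exon (vertical axis, log scale), as the mean of 3 libraries with the SD as bars, in the 4 groups. HSPA8 stays highest in all groups, and HSPA6 moves from 0.482 in control to 11.3 with EC359.

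The exchange factors, which release ADP from HSP70 and so reset it, were led by BAG3 and HSPH1. BAG3, which also couples HSP70 to autophagy, stood at 112, 115 and 116 CPM in control, 294, 293 and 294 CPM with EC359, 103, 106 and 105 CPM with trametinib, and 323, 321 and 342 CPM in the combination group. No group overlapped another. BAG3 rose 2.56-fold with EC359 (log2 1.36 ± 0.03, adjusted p = 4e-44) and 2.87-fold in the combination (1.52 ± 0.03, adjusted p = 7.8e-47), and fell with trametinib (-0.13 ± 0.03, adjusted p = 0.00031).

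HSPH1, the stress-responsive HSP110, stood at 550, 538 and 545 CPM in control, 974, 1001 and 982 CPM with EC359, 547, 547 and 540 CPM with trametinib, and 1207, 1156 and 1163 CPM in the combination group. The control and trametinib libraries overlapped and the other groups stood apart. Its fold change was 1.81 with EC359 (log2 0.86 ± 0.02, adjusted p = 1.4e-38) and 2.16 in the combination (1.11 ± 0.02, adjusted p = 3.2e-44). HSPA4L, another HSP110, rose by 0.39 ± 0.03 with EC359 and 0.74 ± 0.03 in the combination, and the exchange factor BAG1 by 0.30 ± 0.05 and 0.62 ± 0.04. HSPA4 rose with EC359 (0.11 ± 0.03, adjusted p = 0.00018) but gave 0.03 ± 0.03 in the combination (adjusted p = 0.28). BAG2, an inhibitor of STUB1, and HSPBP1, another exchange factor, did not pass the test with EC359, at -0.05 ± 0.03 and -0.03 ± 0.04.

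The HSP40 proteins, which deliver clients to HSP70 and start its ATPase cycle, changed in both directions. DNAJB1, the classical inducible HSP40, stood at 267, 263 and 272 CPM in control, 937, 917 and 918 CPM with EC359, 243, 250 and 251 CPM with trametinib, and 793, 816 and 820 CPM in the combination group. The combination libraries all lay below the EC359 libraries. DNAJB1 rose 3.46-fold with EC359 (log2 1.79 ± 0.02, adjusted p = 1.7e-53) and 3.03-fold in the combination (1.60 ± 0.02, adjusted p = 3.9e-51), and the combination was lower than EC359 alone by a log2 difference of -0.19 ± 0.02 (adjusted p = 1.6e-10).

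DNAJA4, a relative of DNAJA1, stood at 21.1, 21.1 and 20.5 CPM in control, 49.2, 49.3 and 52.5 CPM with EC359, 22.8, 20.3 and 20.6 CPM with trametinib, and 70.5, 70.8 and 67.6 CPM in the combination group. Trametinib alone overlapped control (log2 0.03 ± 0.05, adjusted p = 0.774), whereas the combination exceeded EC359 in every library. DNAJA4 rose 2.41-fold with EC359 (log2 1.27 ± 0.05, adjusted p = 3.3e-30) and 3.34-fold in the combination (1.74 ± 0.05, adjusted p = 1.5e-37).

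DNAJB2, an HSP40 with ubiquitin-interacting motifs that is abundant in neurons, stood at 36.3, 36.5 and 35.4 CPM in control, 73.6, 77.2 and 75.9 CPM with EC359, 57.0, 56.4 and 59.7 CPM with trametinib, and 99.8, 103 and 102 CPM in the combination group. It rose with each agent, by 2.10-fold with EC359 (log2 1.07 ± 0.04, adjusted p = 1.5e-31), 1.60-fold with trametinib (0.68 ± 0.04, adjusted p = 2.1e-21) and 2.82-fold in the combination (1.5 ± 0.04, adjusted p = 2e-39). No group overlapped another.

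DNAJB4, a relative of DNAJB1, stood at 87.3, 84.8 and 83.7 CPM in control, 132, 145 and 148 CPM with EC359, 116, 108 and 113 CPM with trametinib, and 191, 190 and 184 CPM in the combination group, again with no overlap. It rose 1.66-fold with EC359 (log2 0.74 ± 0.03, adjusted p = 2.3e-22), 1.32-fold with trametinib (0.40 ± 0.04, adjusted p = 1.3e-12) and 2.21-fold in the combination (1.14 ± 0.03, adjusted p = 5.1e-30).

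Among the other HSP40 genes, DNAJA1, a general partner of HSPA8, rose by 0.38 ± 0.02 with EC359 and 0.64 ± 0.02 in the combination. DNAJB6, a suppressor of protein aggregation, rose with EC359 (0.48 ± 0.02, adjusted p = 3.7e-25) and fell with trametinib (-0.45 ± 0.02, adjusted p = 8.6e-23), the largest decrease in the group with trametinib. DNAJB5, another relative of DNAJB1, moved the other way, lower with EC359 (-0.23 ± 0.07, adjusted p = 0.00307) and higher with trametinib (0.40 ± 0.07, adjusted p = 2.4e-06). Leaving out the EC359 library numbered 2 brought the count of genes that fell with EC359 from 2 to 1. DNAJA2, a partner of HSPA8, and DNAJC7, which binds both HSP70 and HSP90, fell in the combination, by 0.06 and 0.17 on the log2 scale. DNAJA2 also fell with trametinib (-0.18 ± 0.03, adjusted p = 3.3e-07). With EC359 it gave 0.06 ± 0.03, a rise just inside the threshold (adjusted p = 0.0482). That rise is smaller than the move of the all-gene median to -0.15 with total counts only, so its direction may depend on the scaling.

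The HSP90 genes started high and rose by smaller folds than the inducible HSP70 genes. HSP90AA1, the inducible cytosolic HSP90, stood at 6133, 5908 and 6029 CPM in control, 7171, 7400 and 7305 CPM with EC359, 5865, 5795 and 5681 CPM with trametinib, and 7746, 7442 and 7375 CPM in the combination group. The EC359 and combination libraries overlapped each other and lay above all others. Its log2 fold change was 0.28 ± 0.02 with EC359 (adjusted p = 1.1e-17) and 0.32 ± 0.02 in the combination (adjusted p = 1.5e-20). HSP90AB1, the constitutive form, stood at 2831, 2784 and 2732 CPM in control, 3855, 3896 and 3845 CPM with EC359, 2758, 2789 and 2764 CPM with trametinib, and 4101, 4119 and 4012 CPM in the combination group. HSP90AB1 rose by 0.47 ± 0.02 with EC359 (adjusted p = 3.1e-28) and 0.55 ± 0.02 in the combination (adjusted p = 1.6e-31), a larger log2 change than that of HSP90AA1 in each comparison, a difference that was not itself tested.

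Of the 7 HSP90 co-chaperones, 5 rose with EC359 and 1 fell, against 30.8% and 30.3% of all genes. CHORDC1, a co-chaperone whose promoter held the most 3-unit matches, rose by 0.46 ± 0.02 with EC359 and 0.79 ± 0.02 in the combination. AHSA1, the activator of the HSP90 ATPase, rose by 0.42 ± 0.03 and 0.56 ± 0.03, and STIP1, the adaptor between HSP70 and HSP90, by 0.27 ± 0.02 and 0.20 ± 0.02. FKBP4 and PTGES3 (p23), which act with steroid receptors, each rose by 0.21 ± 0.02 with EC359. In the combination they rose by 0.43 ± 0.02 and 0.07 ± 0.02. Compared to EC359 alone, the combination was higher for FKBP4 (0.21 ± 0.02) and lower for PTGES3 (-0.14 ± 0.02). CDC37, the kinase-specific co-chaperone, gave 0.00 ± 0.02 with EC359 (adjusted p = 0.942) and rose by 0.10 ± 0.02 in the combination. The combination values of CDC37 and PTGES3 are smaller than the move of the all-gene median to -0.14 with total counts only, so they may depend on the scaling. STUB1 (CHIP), the ubiquitin ligase that sends chaperone-bound clients to the proteasome, fell by 0.35 on the log2 scale with EC359 (SE 0.03, adjusted p = 8.6e-15) and by 0.22 in the combination (SE 0.03, adjusted p = 4e-09).

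Small heat shock proteins hold unfolded protein without ATP, and the 2 tested of the 3 in the group both rose with trametinib, against 13.0% of all genes. HSPB1 (HSP27) rose by 0.28 ± 0.03 with EC359, 0.19 ± 0.03 with trametinib and 0.63 ± 0.03 in the combination. CRYAB (αB-crystallin) gave -0.06 ± 0.04 with EC359 (adjusted p = 0.191) and rose by 0.16 ± 0.04 with trametinib and 0.29 ± 0.04 in the combination.

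The mitochondrial chaperonin genes differed from each other. HSPD1 (HSP60) stood at 1055, 1007 and 1025 CPM in control, 1205, 1300 and 1285 CPM with EC359, 967, 959 and 941 CPM with trametinib, and 1304, 1303 and 1241 CPM in the combination group. It rose with EC359 (log2 0.30 ± 0.02, adjusted p = 2.3e-14) and in the combination (0.32 ± 0.02, adjusted p = 1.4e-15). HSPE1 (HSP10), its partner lid, stood at 282, 256 and 234 CPM in control, 237, 248 and 268 CPM with EC359, 231, 244 and 225 CPM with trametinib, and 244, 280 and 255 CPM in the combination group. All 4 groups of HSPE1 overlapped, and no comparison passed the test. HSPE1 overlaps the readthrough gene HSPE1-MOB4 on the same strand, so its counts are uncertain.

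Summed over a role, HSP70 transcripts reached 5777 ± 224 CPM with EC359 and 5607 ± 235 CPM in the combination group, against 3044 ± 17.8 CPM in control and 2794 ± 40.6 CPM with trametinib (SD, n = 3). HSP40 transcripts reached 2540 ± 25.6 and 2549 ± 32.6 CPM in the same pair of groups, against 1492 ± 13.3 and 1402 ± 10.1 CPM, and HSP90 transcripts 11157 ± 135 and 11598 ± 233 CPM, against 8805 ± 142 and 8551 ± 93.2 CPM. Over all members the sum was higher than control by 7941 CPM with EC359. In counts, which are not per length, HSPA1A with HSPA1B gave 19.2% of that difference, HSP90AA1 16.0%, HSPA8 14.7% and HSP90AB1 13.6%, so genes with small folds and high levels carried much of it.

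**Figure D4:**
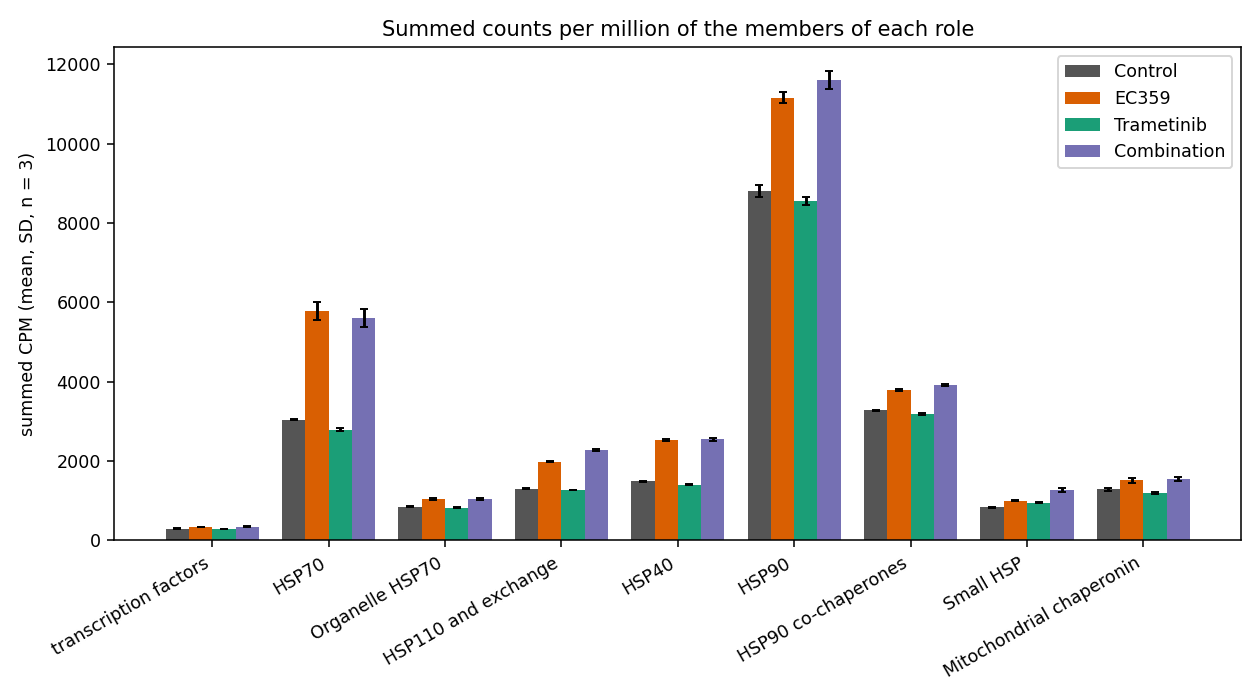
Summed CPM (vertical axis, from 0) of the members of each role, as the mean of 3 libraries with the SD as bars, in the 4 groups. HSP70, HSP40 and HSP90 sums are higher in both groups with EC359, and the HSP70 sum is 5777 with EC359 against 3044 in control.

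The combination was set against EC359 alone to ask how cells given both agents for 7 h differed from cells given EC359 alone. Of the 39 genes, 20 were higher and 8 lower in the combination, against 24.1% and 25.2% of all genes, and none differed by 2-fold, against 1.69% (higher) and 1.55% (lower) of all genes. The largest log2 differences were those of DNAJA4 (0.47 ± 0.04, adjusted p = 1.2e-13), DNAJB2 (0.43 ± 0.04, adjusted p = 9.1e-16), DNAJB4 (0.41 ± 0.03, adjusted p = 4e-14) and DNAJB5 (0.39 ± 0.07, adjusted p = 5.2e-06). The small heat shock proteins HSPB1 (0.35 ± 0.03) and CRYAB (0.34 ± 0.04) came next. The 8 lower genes ranged from -0.20 (DNAJB6) to -0.07 (STIP1) and included HSPA8 and DNAJB1. For the stress-inducible HSP70 genes no difference was detected, with 95% intervals of the log2 difference from -0.22 to 0.42 for HSPA1A, from -0.28 to 0.44 for HSPA1B and from -0.01 to 0.28 for HSPA6. HSPA6 was higher in all 3 combination libraries than in the EC359 libraries, with an adjusted p of 0.106 when all 12 libraries were fitted.

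**Figure D5:**
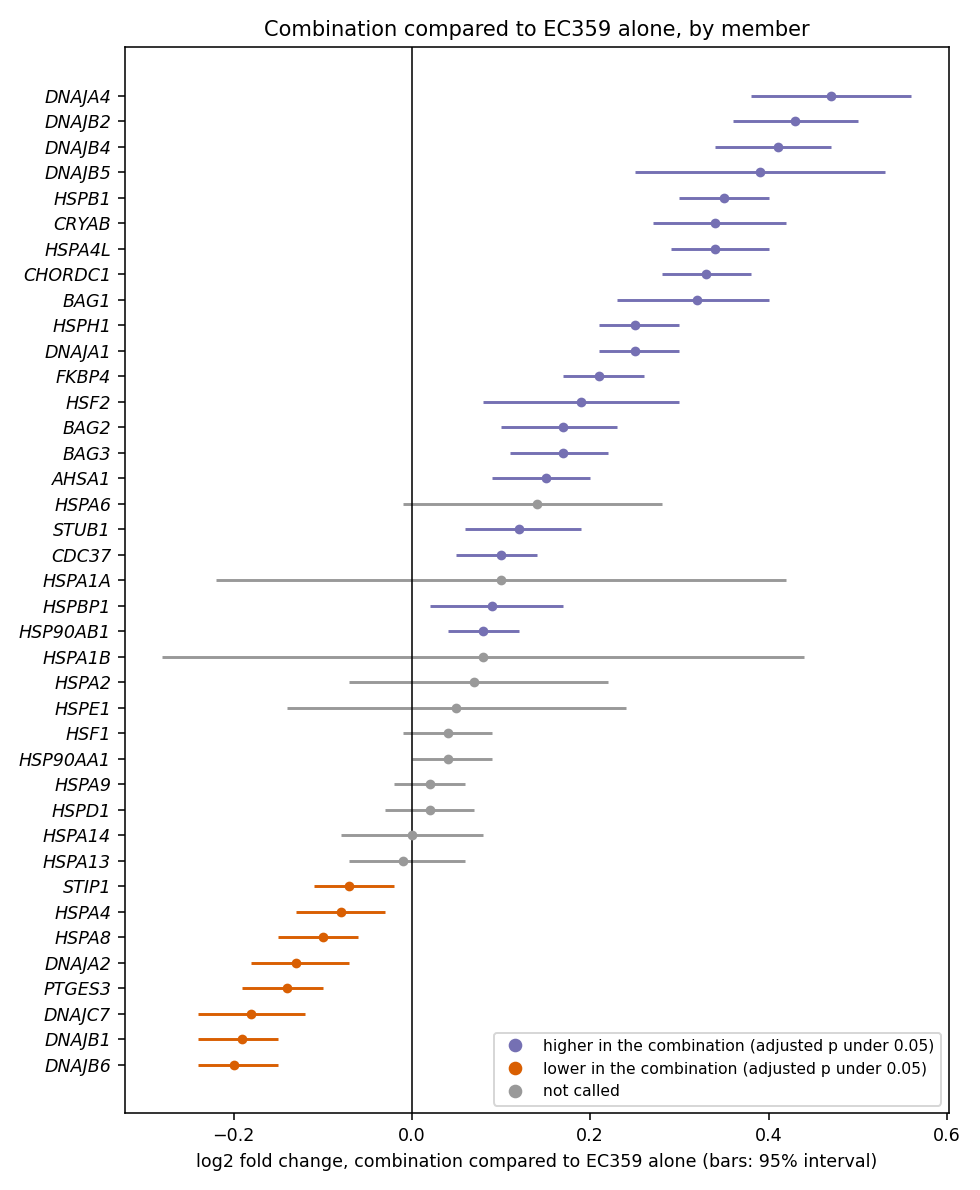
Log2 fold change of the combination compared to EC359 alone (horizontal axis, points, with 95% intervals as bars) for the 39 tested genes, ordered by size and coloured by call. The values run from -0.20 for DNAJB6 to 0.47 for DNAJA4, and the intervals of HSPA1A and HSPA1B are wide and include 0.

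The interaction asked whether the EC359 effect in the presence of trametinib differed from the effect in its absence. At an adjusted p under 0.05 it was positive for 21 genes and negative for 2, against 14.4% and 15.9% of all genes, with a median of 0.15 for the group. With total counts only, 19 were positive and 4 negative. The smallest positive value past the threshold, that of HSP90AB1 (0.08 ± 0.03, adjusted p = 0.0209), lost its call under 5 alternatives. DNAJA4 had the largest value (0.44 ± 0.07, adjusted p = 9.9e-07), followed by BAG1 (0.39 ± 0.06), FKBP4 (0.34 ± 0.03), DNAJA1 (0.30 ± 0.03) and BAG3 (0.30 ± 0.04). The negative ones past the threshold were DNAJB2 (-0.25 ± 0.05, adjusted p = 0.00017) and PTGES3 (-0.15 ± 0.03, adjusted p = 0.00011). DNAJB4, at 0.01 ± 0.05 with a 95% interval from -0.09 to 0.10, and DNAJB5, at -0.01 ± 0.10 with an interval from -0.20 to 0.19, did not pass it, although both were higher in the combination than with EC359. For HSPA1A, HSPA1B and HSPA6 the intervals ran from -0.38 at the lowest to 0.83 at the highest.

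Set beside their promoters, the 18 tested genes with a 2-unit match had a median log2 fold change of 0.46 with EC359 (17 rose) and of 0.64 in the combination (18 rose). The 8 genes with a 3-unit match had medians of 0.46 and 0.47, and all 8 rose in both comparisons. The 16 genes without a match had medians of 0.17 with EC359 (10 rose) and 0.17 in the combination (11 rose). Over all genes tested, 30.8% rose with EC359 and 35.0% in the combination, shares that were not split by promoter match. A match is only a description of letters, and BAG3 and HSPH1 had none in these windows although BAG3 rose 2.56-fold and HSPH1 1.81-fold with EC359.

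Other genes of the same pathways were set beside the group. Of 7 tested genes known to respond to HSF1 that were not in the group (8 listed), 5 rose with EC359, none fell, and 6 rose and 1 fell in the combination. Over all genes, 30.8% rose and 30.3% fell with EC359 and 35.0% rose and 34.7% fell in the combination, which are also the shares to set beside the lists that follow. DEDD2, a protein with a death effector domain, rose by 1.73 ± 0.04 with EC359 and 2.26 ± 0.04 in the combination, and IER5, an HSF1 target that feeds back on HSF1, by 1.36 ± 0.03 and 1.52 ± 0.03. ZFAND2A, a proteasome-associated stress protein, rose by 0.43 ± 0.04 and 0.74 ± 0.04. SERPINH1, the collagen chaperone HSP47, gave 0.05 ± 0.03 with EC359 (adjusted p = 0.123) and fell with trametinib (-0.32 ± 0.03, adjusted p = 7.9e-14) and in the combination (-0.07 ± 0.03, adjusted p = 0.0165).

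The TRiC chaperonin, which folds actin and tubulin, changed little. Of its 8 subunits, 5 rose with EC359, none by more than 0.25 (TCP1), and in the combination 1 rose (TCP1, 0.36 ± 0.02) and 2 fell (CCT4, -0.13 ± 0.02, and CCT2, -0.06 ± 0.02), against 35.0% and 34.7% of all genes. Of the 6 prefoldin subunits, which deliver clients to TRiC, none rose and 3 fell with EC359, and in the combination 1 rose (PFDN5, 0.12 ± 0.03) and 3 fell, led by PFDN1 (-0.29 ± 0.03) and VBP1 (-0.15 ± 0.04). Of 19 tested co-chaperones outside the group (20 listed), 7 rose and 5 fell with EC359 and 7 rose and 7 fell in the combination, shares near the all-gene ones. These included DNAJB9, an HSP40 of the endoplasmic reticulum (1.98 ± 0.11 in the combination), the HSP70-binding SGTB (0.69 ± 0.05), the HSP90-binding TTC4 (-0.80 ± 0.04) and BAG4 (-0.57 ± 0.04). Of 9 mitochondrial chaperones and proteases, 5 rose and 1 fell with EC359 and 3 rose and 3 fell in the combination, against 35.0% and 34.7% of all genes, among them the protease LONP1 (0.53 ± 0.02), the disaggregase CLPB (0.28 ± 0.03), the unfoldase CLPX (-0.52 ± 0.04) and GRPEL1 (-0.35 ± 0.04), the exchange factor of HSPA9.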

How the data were processed

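RNA from 12 OVCAR8 libraries (4 groups of 3) was sequenced as stranded, paired 100 bp reads. The deposited values were estimated counts per gene: per the file headers, the authors ran featureCounts 1.5.0-p1 on a UCSC hg38 annotation, stranded, counting multimapping and overlapping pairs in fractions above a mapping quality minimum of 2, so 12.4% to 15.1% of genes held fractional counts. HISAT2 and bcl2fastq appear in the submitters' processing notes, with no role given. The counts were rounded, and genes were kept by edgeR's filterByExpr (minimum count 10, minimum total 15), leaving 14865 genes. 6337 of 26485 genes had no count. One model of all 12 libraries was fitted in edgeR 4.0.16 (R 4.3.3) with TMM factors (0.947 to 1.06), robust quasi-likelihood tests and Benjamini-Hochberg adjustment over all genes tested, and the interaction was the difference of differences. Tested on simulated data for the combination against control, the fit recovered 200 of 200 changed genes with 8 false calls among 14646 genes. How recovery varied with the size of a fold change, or with the spread of a gene between libraries, was not tested. CPM are the rounded counts scaled to TMM-adjusted library totals, and CPM per kb divides them by the exon length on the primary chromosome. Intervals cover 95%. The limit for a count of 0 is 3 counts, for counting error only. The genes and lists were chosen with earlier results of these data known. Values per library are given for genes past 2-fold and for HSPA8, HSP90AA1, HSP90AB1, HSPD1, HSPE1, HSF1, HSF2, HSPA1A and HSPA1B. From other lists up to 2 of the largest changes in each direction with an adjusted p under 0.05 in the combination are named, with IER5, ZFAND2A and SERPINH1. Alternatives were DESeq2 1.42.0, other scaling, filters and rounding, a replicate block and leaving out libraries.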

Additional observations from a re-analysis of the deposited data

Results flagged for a closer look

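The EC359 effect differed between cells with and without trametinib, by the interaction term of the edgeR model, for 21 genes of the group upward and 2 downward at an adjusted p under 0.05, against 14.4% and 15.9% of all genes, or 19 and 4 with total counts only. The values are log2 differences between the effects, and the cause was not tested. Among HSP40 genes they were 0.44 for DNAJA4, 0.30 for DNAJA1, 0.25 for DNAJB6 and -0.25 for DNAJB2. Among the HSP110 and exchange factors they were 0.39 for BAG1, 0.30 for BAG3, 0.27 for BAG2, 0.25 for HSPH1, 0.23 for HSPA4L and 0.20 for HSPBP1. Among HSP90 co-chaperones they were 0.34 for FKBP4, 0.26 for CHORDC1, 0.22 for AHSA1, 0.21 for CDC37, 0.17 for STUB1 and -0.15 for PTGES3. The HSP90 genes themselves gave 0.10 (HSP90AA1) and 0.08 (HSP90AB1), the latter with a call that was lost under 5 alternatives. The small heat shock proteins gave 0.19 (CRYAB) and 0.15 (HSPB1), the mitochondrial proteins 0.13 (HSPD1) and 0.10 (HSPA9), and HSF1 0.12. For DNAJB6 the term came with opposite single-agent changes, a rise with EC359 and a fall with trametinib. For STUB1 it was a smaller decrease with EC359 when trametinib was present, with log2 values of -0.17 against -0.35.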

How the results depend on the processing

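Of 460 counts of genes recomputed under the alternatives, 454 stayed within 1.5 times the value reported. Of 2012 log2 fold changes, those of the 16 genes given per library, 1970 kept their direction and side of the threshold, 15 lost the call, 9 gained one and 18 changed sign. The other tested genes were followed only through the counts. Scaling by total counts only gave 8 genes lower with EC359, 8 lower with trametinib, 5 lower in the combination compared to control, 6 lower compared to trametinib and 4 with a negative interaction. This scaling moved the median of all genes to -0.15 with EC359, -0.14 in the combination and -0.16 for the combination compared to trametinib. Rises smaller than these moves may depend on the scaling, such as those of HSPA4 and DNAJA2 with EC359 and of CDC37 and PTGES3 in the combination. Leaving out a library gave 1 to 2 genes lower with EC359, the 1 being without EC359 replicate 2. Changes of sign concerned values near 0, and their cause was not tested. HSPE1 ranged from -0.10 to 0.04 with EC359, from -0.05 to 0.08 in the combination compared to control and from -0.01 to 0.10 compared to EC359 when libraries were left out, and gave -0.13 in the combination and -0.01 compared to trametinib with total counts. With trametinib and a library left out, DNAJA4 ranged from -0.03 to 0.05, HSPA6 from -0.32 to 0.05 and HSP90AB1 from -0.02 to 0.01, and HSP90AB1 gave 0.02 with total counts. Between the combination and EC359, HSPA1B ranged from -0.05 to 0.24 and HSPD1 from -0.01 to 0.04 in the same way. The interaction of DNAJB4 ranged from -0.04 to 0.04 and gave -0.02 with total counts, and that of HSPA8 gave -0.01 with total counts. The positive interaction of HSP90AB1 lost its call under 5 settings.

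Same-numbered libraries did not deviate together (correlations -0.0669 to 0.0304, median -0.0211, over 18 pairs, and 1 library correlated best with its own number). The main model therefore did not pair the samples by number, although a pairing that left no shared deviation would not show here. The replicate block gave 29 genes higher and 2 lower with EC359, and 33 higher and 3 lower in the combination. HSPB8 and HSPA1L stayed below the filter on low counts, and the control level of HSPA6 rested on 33 to 38 counts per library. Whether depth or a loss of reads in mapping limited these counts was not tested.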
